A study of Mus musculus with 6 samples.

Results

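Amino acid transporters of the plasma membrane were followed through messenger RNA, ribosome footprints and RNA crosslinked to pyruvate kinase M2 (PKM2) in E14 mouse embryonic stem cells. They were the rows of the deposited table whose symbol was one of 10 chosen names, and all 10 were found, among 6532 genes in all. The names were Slc7a5, Slc3a2, Slc1a5, Slc1a4, Slc7a1, Slc7a3, Slc7a7, Slc38a1, Slc38a2 and AU018091, and each had 1 row. The E14 line was grown on gelatin with serum and LIF. The siPKM libraries came from wild-type cells given an siRNA pool against PKM1 and PKM2 at 20 nM for 36 h, and the siCtrl libraries from wild-type cells given a non-targeting pool at the same dose and time. All 4 of these libraries came from cells treated with cycloheximide, which halts ribosomes, at 100 µg/ml for 2 min. For each siRNA pool there was a single RNA library, from total RNA freed of rRNA, and a single library of ribosome footprints (ribosome-protected fragments, RPF). With 1 library of each kind, no difference between siPKM and siCtrl below has a replicate check and no p-value is given. Crosslinked RNA came from 2 FAST-iCLIP replicates of E14 cells with the genotype PKM2_FLAG_HA, which got no siRNA and 0.35 J per cm2 of ultraviolet light.

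Cells import amino acids through carriers that differ in what they carry and in what drives them. Sodium-coupled carriers concentrate neutral amino acids such as glutamine inside the cell, exchangers then trade these for essential amino acids such as leucine, and uniporters of the cationic family let arginine and lysine in. Leucine, arginine and glutamine feed protein synthesis and the growth-controlling kinase complex mTORC1, and when amino acids run short the transcription factor ATF4 is known to raise several of these carriers.

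ATF4 with a C/EBP partner binds a composite element, here written TGATGNAAN, and the promoter windows were searched for it because the transporters include known targets of this factor. Of the 10 transporters, 5 had windows in the RefSeq promoter table of build GRCm38.p6 (Slc7a1, Slc1a4, Slc7a7, Slc38a2 and Slc3a2), with 10 windows in all, each 250 bases before and 50 after an annotated start. The letters were found on either strand in 3 of these windows, from 2 genes, and in 3.95% of all 32851 windows of that length. Windows of nearby starts overlap, so a site can be counted in more than 1 window. The 3 windows are thus not 3 separate finds, and their share was not tested against that of all windows. The sites are shown in the direction of the gene with the element in capitals, which for Slc1a4 lies on the opposite strand.
Slc1a4, chr11:20332701-20332727, minus strand: gcctcctgcGTTGCATCAtctccagcc
Slc7a7, chr14:54418068-54418094, minus strand: gcttgggctTGATGAAAGgttcactgg
Slc7a7, chr14:54417928-54417954, minus strand: cctagaagcTGATGCAACagcttcccc
The element began 5 bases before the start in Slc1a4, and 141 bases and 1 base before the same start in Slc7a7. The sites of Slc7a7 thus lie in the same window. A match is a description of letters and not a binding site. Sequence outside these windows was not searched, so a gene without a match here may hold the element elsewhere.

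The table held 10349212 reads over the coding sequence (CDS) in siPKM RNA and 12111993 in siCtrl RNA, and 12545485 in siPKM RPF and 15175242 in siCtrl RPF. CLIP gave 677534 stops of reverse transcription in replicate 1 and 670508 in replicate 2. Pkm, the target of the siRNA and listed as Pkm2, had 1582 CPM (counts of CDS reads scaled to a library sum of 1e6) in siPKM RNA, against 5024 CPM in siCtrl RNA, and 1683 CPM in siPKM footprints, against 5311 CPM in siCtrl footprints. Of 14 pluripotency markers 13 were in the table, and 0 of them were at least 1.5-fold apart in RNA or in RPF, with log2 ratios from -0.39 to 0.55 (Esrrb) in RNA and from -0.44 (Zfp42) to 0.35 (Esrrb) in RPF. Among all genes, 2.88% passed this fold upward and 1.24% downward in RNA, and 2.66% and 1.53% in RPF. At such shares, 0 of 13 does not set the markers apart. Of these 13 markers, 5 were above 0 in RNA and 2 in RPF. Of the markers of other cell types, the table held 3 of 9 for trophoblast, 2 of 9 for primitive endoderm, 3 of 5 for neural cells and 1 of 6 for mesoderm and fibroblasts, and they went both ways. The keratin Krt8 stood at 0.59 in RNA, the laminin Lama1 at 0.82 and Vim at 0.36, whereas Tcfap2c stood at -0.60, Nes at -0.54 and Tubb3 at -0.64. Their part in the differences below was not tested.

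The comparison of siPKM with siCtrl asked whether loss of pyruvate kinase M goes with other levels of these carriers or other ribosome loads on them. Ratios are log2 of siPKM over siCtrl, relative to the median gene of the same library pair, with 95% intervals that cover counting error only. Slc38a2 was the only transporter at least 1.5-fold apart, and it was lower in siPKM in both RNA and RPF. Among all genes, 1.24% passed this fold downward in RNA and 1.53% did in RPF, whereas 2.88% in RNA and 2.66% in RPF passed it upward. No transporter passed 1.5-fold in translation efficiency (TE, footprints per RNA), where 0.184% of all genes were higher and 0.827% lower. The other 9 transporters stood between -0.06 and 0.37 in RNA and between -0.21 and 0.50 in RPF, and the median of all 10 was 0.17 in RNA, 0.11 in RPF and -0.06 in TE, against 0 for all genes by construction. Above 0 were 7 of 10 in RNA, 8 in RPF and 4 in TE. In bulk libraries fewer cells of a kind and less RNA per cell cannot be told apart.

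**Figure D1:**
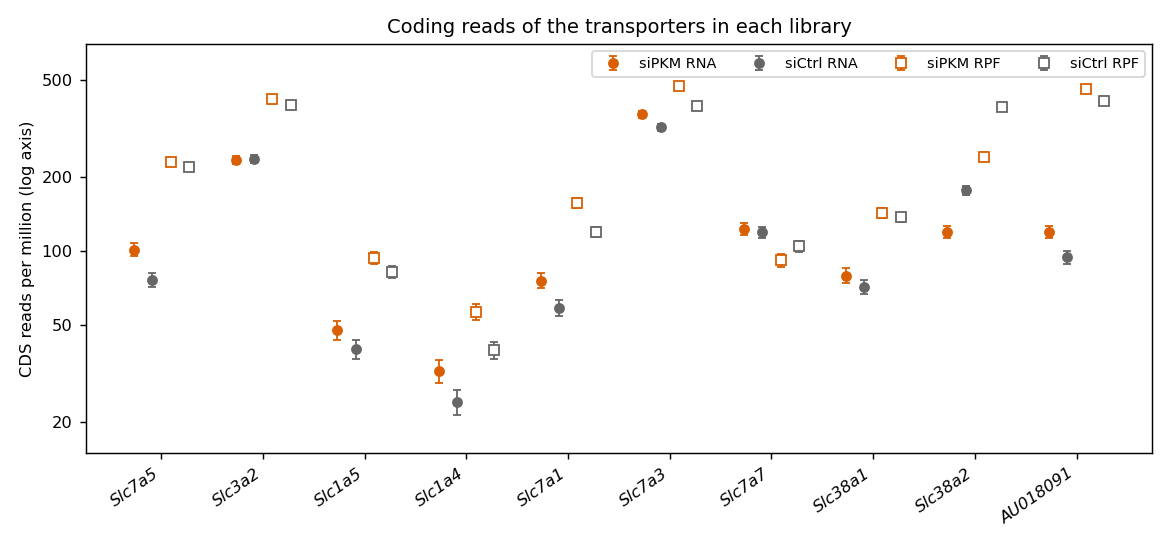
CDS CPM (log axis) of each transporter in the siPKM and siCtrl libraries of RNA (filled circles) and footprints (open squares), 1 library per point, with exact 95% Poisson intervals. Slc38a2 had 119.5 CPM in siPKM RNA and 177.5 CPM in siCtrl RNA, and the values of different genes are not corrected for length.

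The sodium-coupled carriers of glutamine and other small neutral amino acids, Slc38a1 and Slc38a2 (SNAT1 and SNAT2), parted ways. Slc38a2, whose message is known to be induced by amino acid shortage, had 119.5 CPM (1237 reads) in siPKM RNA, against 177.5 CPM (2150 reads) in siCtrl RNA. Its footprints stood at 242.6 CPM (3044 reads) in siPKM and 388.3 CPM (5892 reads) in siCtrl. Both intervals excluded 0, with log2 ratios of -0.62 (-0.72 to -0.52) in RNA and -0.70 (-0.76 to -0.64) in RPF. Less than 1% of genes had a lower ratio (0.980% in RNA and 0.873% in RPF). The RNA value was near the 1.5-fold line and was under it (-0.57) with libraries scaled to their sum and no centring on the median gene, though not with TMM (-0.61) or DESeq2 factors (-0.60), also without centring. Its TE ratio was -0.09 (-0.20 to 0.03), so a TE difference was not detectable at this depth.

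The lower level of Slc38a2 was seen in reads of 3 message regions. RNA reads of the 5' UTR gave -0.60 (-0.83 to -0.38) from 254 siPKM and 437 siCtrl reads, and those of the 3' UTR gave -0.59 (-0.65 to -0.53) from 3432 and 5861 reads, next to -0.62 in the CDS. Footprints of the 5' UTR gave -0.56 (-0.70 to -0.41) and those of the first 15 codons -0.57 (-0.82 to -0.33). RNA reads of the first 15 codons, only 37 in siPKM and 41 in siCtrl, gave 0.03 (-0.65 to 0.71). These are separate reads of the same libraries and no replicate. Slc38a1, which carries similar substrates, had 79.3 CPM in siPKM RNA and 71.3 CPM in siCtrl RNA, and 142.8 CPM in siPKM footprints and 137.2 CPM in siCtrl footprints. Its CDS intervals included 0 in RNA (0.11, -0.03 to 0.25), RPF (0.04, -0.06 to 0.13) and TE (-0.08, -0.24 to 0.09), although its more numerous 3' UTR reads gave 0.32 (0.23 to 0.41) in RNA.

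The heteromeric exchangers are a light chain that carries the amino acids and the heavy chain Slc3a2 (4F2hc, CD98), a glycoprotein that brings the light chains to the surface. Slc7a5 (LAT1), the light chain that takes in leucine and other large neutral amino acids, had 101.5 CPM in siPKM RNA and 76.1 CPM in siCtrl RNA. Its footprints were almost level, at 231.0 CPM in siPKM and 219.4 CPM in siCtrl. The RNA ratio was thus 0.37 (0.24 to 0.50), the RPF ratio 0.05 (-0.02 to 0.12) and the TE ratio -0.32 (-0.46 to -0.17), the lowest TE ratio of the 10, with 6.48% of all genes lower. With RNA reads of the whole transcript, an alternative chosen after seeing the data, the TE ratio was -0.23, since reads of the 3' UTR gave an RNA ratio of 0.20 (0.08 to 0.33).

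Footprints of Slc7a5 were also counted by region. In the 5' UTR they were 171 in siPKM and 153 in siCtrl, a ratio of 0.41 (0.09 to 0.74), whereas the first 15 codons gave -0.07 (-0.32 to 0.19) from 233 and 291 footprints. The 5' UTR held 5.06% of the gene's footprints (4.34 to 5.85) in siPKM and 3.95% (3.35 to 4.61) in siCtrl, intervals that overlap, as the interval of the 5' UTR ratio does with that of the CDS. Slc7a5 also had many footprints in the last 5 codons, 2.10% (1.64 to 2.64) in siPKM and 2.53% (2.06 to 3.07) in siCtrl, where the median gene had 0.585% and 0.573%.

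Slc3a2 itself was level in RNA, with 235.8 CPM in siPKM and 237.9 CPM in siCtrl, and its footprints were at 416.6 CPM in siPKM and 392.9 CPM in siCtrl. Its ratios were -0.06 (-0.14 to 0.02) in RNA, 0.06 (0.01 to 0.12) in RPF and 0.12 (0.03 to 0.21) in TE. The heavy chain and its light chain Slc7a5 therefore had TE ratios on opposite sides of 0 with intervals that do not overlap. Slc7a7 (y+LAT1), the light chain that exports cationic amino acids in exchange for neutral ones and sodium, had 123.0 CPM in siPKM RNA and 119.1 CPM in siCtrl RNA. Its footprints were lower in siPKM, at 91.6 CPM, against 104.6 CPM in siCtrl. That gave a ratio of -0.00 (-0.11 to 0.11) in RNA, -0.21 (-0.32 to -0.10) in RPF and -0.21 (-0.37 to -0.06) in TE. Besides Slc38a2, it was the only transporter with fewer footprints relative to the median gene.

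**Figure D2:**
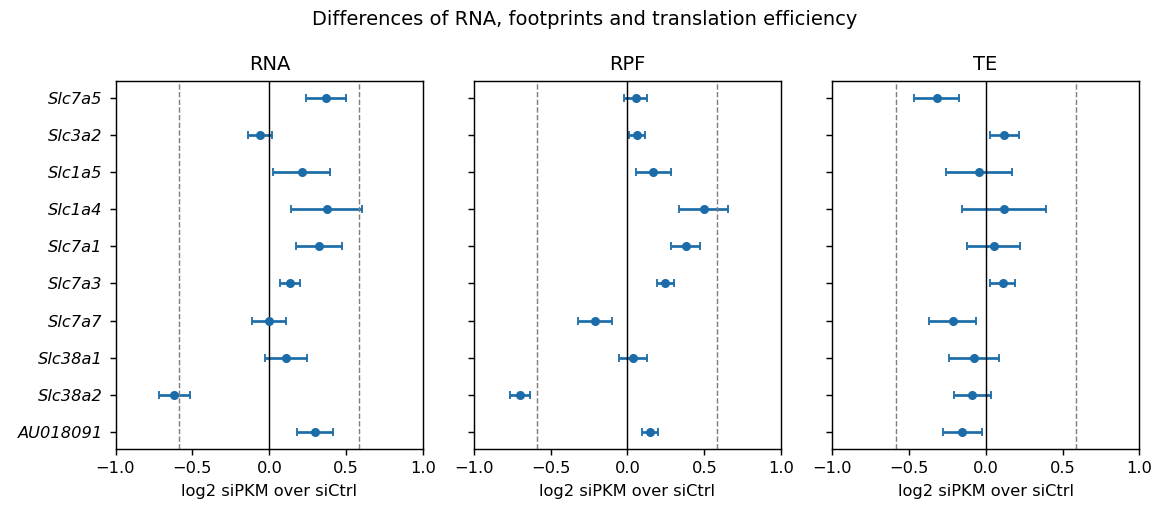
Log2 ratios of siPKM over siCtrl for RNA, footprints (RPF) and translation efficiency (TE) of each transporter, relative to the median gene, with 95% intervals from read counts; dashed lines mark 1.5-fold. Slc38a2 lies beyond the line in RNA (-0.62) and RPF (-0.70), and Slc7a5 has the lowest TE ratio (-0.32).

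The exchangers of small neutral amino acids, Slc1a5 (ASCT2, a main glutamine carrier of dividing cells) and Slc1a4 (ASCT1, which carries alanine, serine and cysteine), had ratios above 0 in RNA and RPF, each under 1.5-fold. Slc1a4 had the fewest reads of all 10, with 32.4 CPM (335 reads) in siPKM RNA and 24.2 CPM (293 reads) in siCtrl RNA. Its footprints were at 56.4 CPM in siPKM and 39.4 CPM in siCtrl. The ratios were 0.37 (0.14 to 0.60) in RNA and 0.50 (0.34 to 0.66) in RPF, the highest RPF ratio of the 10, above 95.6% of all genes. Footprints of its 5' UTR were 95 in siPKM and 56 in siCtrl, a ratio of 1.01 (0.52 to 1.52). Slc1a5 had 47.4 CPM in siPKM RNA and 39.7 CPM in siCtrl RNA, and 93.9 CPM in siPKM footprints and 82.3 CPM in siCtrl footprints. Its CDS ratios were smaller, at 0.21 (0.03 to 0.39) in RNA and 0.17 (0.05 to 0.28) in RPF. RNA reads of its 5' UTR gave 0.53 (0.26 to 0.80) and those of its 3' UTR 0.52 (0.15 to 0.91). For Slc1a4 RNA reads gave 0.18 (-0.44 to 0.80) in the 5' UTR and 0.56 (0.36 to 0.77) in the 3' UTR. TE intervals of both genes included 0 (0.12, -0.15 to 0.40, for Slc1a4 and -0.04, -0.26 to 0.17, for Slc1a5). With RNA reads of the whole transcript, chosen after seeing the data, TE was 0.04 for Slc1a4 and -0.19 for Slc1a5.

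The carriers of arginine and lysine, Slc7a1 (CAT1) and Slc7a3 (CAT3), and AU018091, which the table describes as cationic amino acid transporter 5, were all higher in siPKM RNA and RPF, each by less than 1.5-fold. Slc7a1, the carrier of arginine found in most cells, had 75.7 CPM in siPKM RNA and 58.6 CPM in siCtrl RNA. Its footprints were at 157.4 CPM in siPKM and 119.4 CPM in siCtrl, with ratios of 0.32 (0.17 to 0.47) in RNA and 0.38 (0.28 to 0.47) in RPF. The 3' UTR of Slc7a1, with more RNA reads than its CDS, gave 0.48 (0.37 to 0.58). Slc7a3 stood at 362.3 CPM in siPKM RNA and 319.7 CPM in siCtrl RNA, and at 469.7 CPM in siPKM footprints and 390.0 CPM in siCtrl footprints. Its ratios were 0.13 (0.07 to 0.20), 0.25 (0.19 to 0.30) and, in TE, 0.11 (0.03 to 0.19). AU018091 had 119.6 CPM in siPKM RNA and 94.2 CPM in siCtrl RNA, and 458.7 CPM in siPKM footprints and 407.8 CPM in siCtrl footprints. Its RNA ratio of 0.30 (0.18 to 0.42) exceeded its RPF ratio of 0.15 (0.10 to 0.20), and its TE ratio was -0.15 (-0.28 to -0.03).

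The level of TE within a library asks how many footprints a message carries per RNA read. It needs no correction for length, because both are counted over the same CDS, and it is given as log2 relative to the median gene of that siRNA group. Most of the transporters were heavily loaded. In siCtrl, 8 of the 10 were at least 1.5-fold above the median gene, as were 20.1% of all genes, and the median of the 10 was 1.16. Of the 5 further amino acid transporters in the table, 2 were, and their median was 0.45. Among all 56 other genes with an Slc symbol outside the mitochondrial Slc25 family, 9 were, and their median was -0.21. These 56 were picked by symbol and include Slc4a1ap, Slc7a6os and Slc9a3r1, which are not carriers themselves. These thresholds and lists were chosen with earlier results known, and no test of the lists was made.

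AU018091 carried the most footprints per RNA read, with a TE of 2.11 (2.03 to 2.20) in siPKM and 2.29 (2.20 to 2.38) in siCtrl, above 98.9% of all genes in each. Slc7a5 followed, with 1.36 (1.26 to 1.46) in siPKM and 1.70 (1.60 to 1.81) in siCtrl. In siCtrl the order went on with Slc38a2 (1.30), Slc1a5 (1.23), Slc7a1 (1.20) and Slc38a1 (1.12), neighbours whose intervals overlapped. Slc3a2 (0.90) and Slc1a4 (0.88) also overlapped each other, and Slc3a2 lay below Slc38a1 with no overlap. Slc7a3, at 0.55 in siPKM and 0.46 in siCtrl, and Slc7a7, at -0.25 in siPKM and -0.01 in siCtrl, were the lowest and did not overlap any other transporter in siCtrl. The 2 arginine carriers with the known names CAT1 and CAT3 thus differed in load, 1.20 (1.08 to 1.33) for Slc7a1 against 0.46 (0.40 to 0.52) for Slc7a3 in siCtrl.

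**Figure D3:**
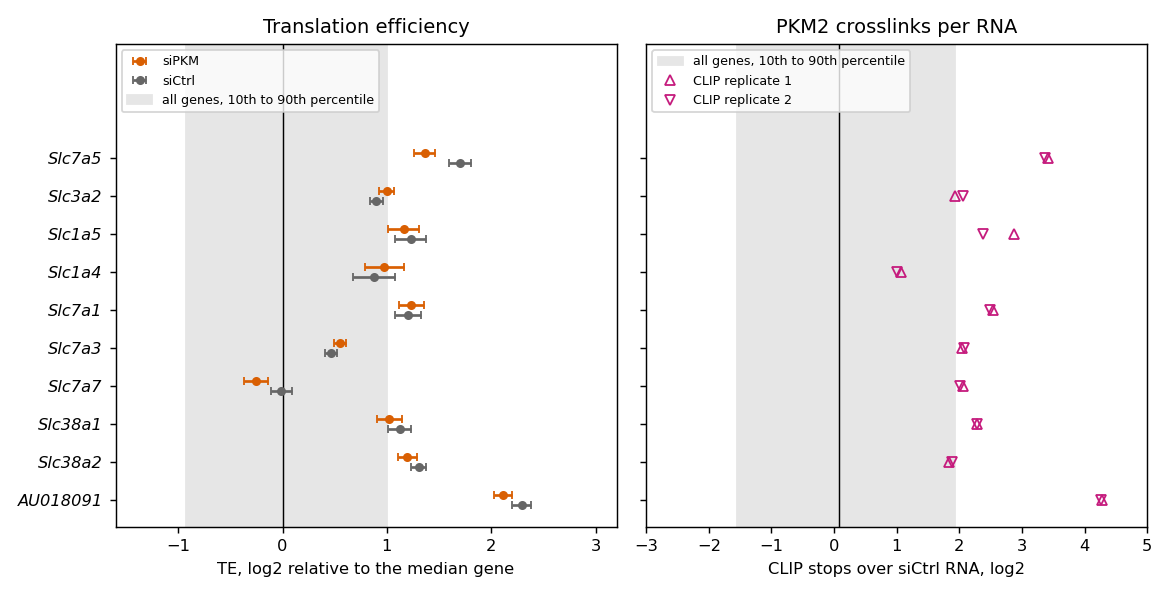
Left, TE level of each transporter (log2 relative to the median gene) in siPKM and siCtrl, 1 pair of libraries each, with 95% counting intervals. Right, log2 of CLIP stops over siCtrl RNA in each CLIP replicate. Vertical lines mark the median of all genes and grey bands their 10th to 90th percentile (siCtrl for TE); AU018091 is the highest transporter in both panels, at 2.29 in siCtrl TE and 4.26 in CLIP over RNA.

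Footprints before the start codon are of interest in this family because short upstream reading frames are known in some stress-controlled messages. In the 5' UTR lay a median of 11.1% of a transporter's footprints in siPKM and 9.22% in siCtrl, against 3.71% in siPKM and 3.85% in siCtrl for all genes. The median was 9.19% in siPKM and 7.02% in siCtrl for the 5 further amino acid transporters in the table. It was 6.22% in siPKM and 6.14% in siCtrl for the other 56 Slc genes. Slc1a5 had the largest share, 24.2% (22.2 to 26.2) in siPKM and 23.9% (21.9 to 25.9) in siCtrl, and Slc38a2 was second with 16.0% (14.9 to 17.2) in siPKM and 14.8% (13.97 to 15.6) in siCtrl. Slc38a1, Slc7a1, Slc7a7 and Slc1a4 lay between 10.7% and 12.3% in siPKM and between 8.33% and 12.5% in siCtrl. At the other end AU018091 had 0.0172% in siPKM and 0.0320% in siCtrl (1 and 2 footprints), and Slc3a2 0.682% in siPKM and 0.859% in siCtrl. The RNA reads of Slc1a5 lay in the 5' UTR about as often, 28.9% in siPKM and 25.5% in siCtrl, whereas those of Slc38a2 did so in 5.11% and 5.14%. RNA reads were scarce there too for AU018091, at 0.122% in siPKM and 0.0658% in siCtrl (2 and 1 reads). For Slc3a2 they made up 0.550% in siPKM and 0.775% in siCtrl. For each of the 10 transporters the footprint intervals of siPKM and siCtrl overlapped. The length of each 5' UTR enters these shares and was not used here.

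Slc3a2 and AU018091 also had few footprints in the first 15 codons, 0.151% and 0.155% of their footprints in siPKM and 0.347% and 0.176% in siCtrl, where the median gene had 4.24% and 4.32%. Fewer than 5% of all genes had a lower share in either library. For Slc3a2 RNA reads were also rare there, at 5 in siPKM and 7 in siCtrl. AU018091 had 7 RNA reads there in siPKM and 12 in siCtrl. These were 0.427% and 0.789% of its RNA reads, where the median gene had 1.57% and 1.61%. The row of Slc3a2 is the transcript of isoform a, and use of other starts was not tested.

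**Figure D4:**
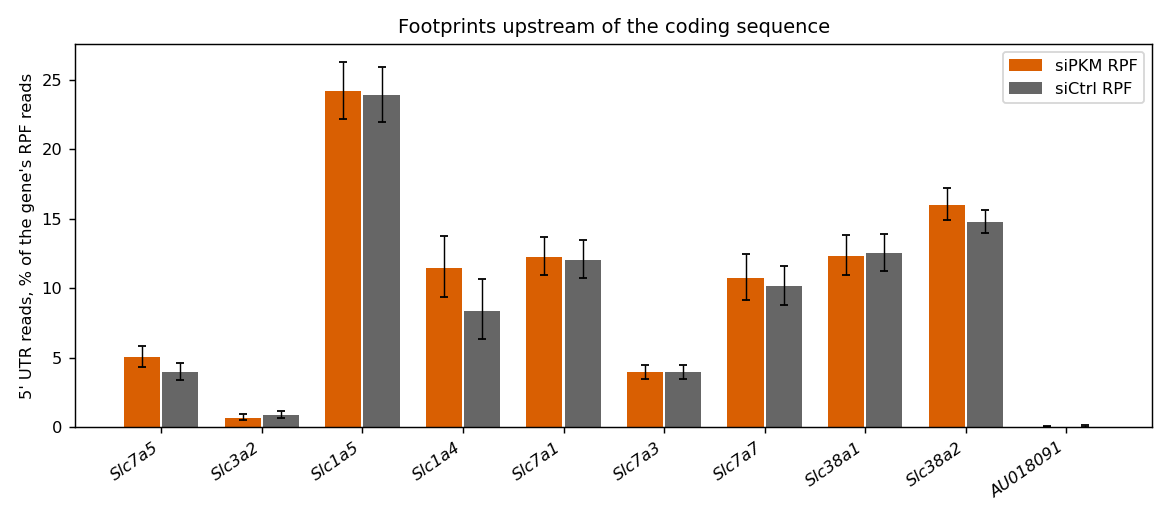
Share of each gene's footprints that lay in the 5' UTR, in percent, for siPKM and siCtrl footprints, with exact 95% binomial intervals. Slc1a5 has 24.2% in siPKM and 23.9% in siCtrl, and the intervals of the siRNA groups overlap for every transporter.

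CLIP was made to find RNAs in contact with the tagged PKM2 protein. In iCLIP reverse transcription tends to stop beside a crosslinked base, and stops were counted per mature transcript. Values are the log2 of the stops' share over the share of RNA reads on the whole transcript in siCtrl cells, which lack the tag, with the SD of 2 replicates, which nothing in the labels says were separate cultures. The SD leaves out the error of the single siCtrl RNA library that both replicates are divided by. From 2 values it can also fall below counting error. CLIP was by anti-FLAG and anti-HA beads, and CLIP of untagged cells was not analysed here, so background is included. All 10 transporters were at least 2-fold above their RNA share, as were 27.5% of all genes. The median of the transporters was 2.17, against 0.08 for all genes. It was 1.64 for the other 56 Slc genes, of which 47 were at least 2-fold above. Slc4a1ap (-1.09), Slc7a6os (-0.27) and Slc9a3r1 (0.55), not carriers themselves, were among those that were not. For the 5 further amino acid transporters the median was 1.76, and 4 were at least 2-fold above. Of these, Slc6a6 (3.45) stood above all of the 10 but AU018091.

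AU018091 had 1532 and 1515 CPM of stops (1038 and 1016 stops) in the CLIP replicates, and its CLIP over RNA was 4.26 ± 0.01 (SD, n = 2), rank 10 of 6532 genes. Slc7a5 came next, with 1138 and 1107 CPM and a ratio of 3.39 ± 0.03, rank 64. Slc1a5 was the least repeatable, with 307.0 and 219.2 CPM and 2.65 ± 0.34, so its place beside Slc7a1 (2.52 ± 0.04) is not settled. Slc38a1 stood at 2.28 ± 0.00, Slc7a3 at 2.06 ± 0.02, Slc7a7 at 2.03 ± 0.03 and Slc3a2 at 1.99 ± 0.09, and the SD of Slc3a2 spans both of the other two. Slc38a2 had the most stops of the 10, 1576 and 1642 CPM, but with its many RNA reads the ratio was 1.86 ± 0.04. Slc1a4 was the lowest, with 75.3 and 71.6 CPM and 1.04 ± 0.05. In the authors' deposited table, which scales by other totals, the log2 CLIP enrichment was 4.52 for AU018091 and 3.65 for Slc7a5.

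AU018091 and Slc7a5 were the highest of the 10 both in CLIP over RNA and in siCtrl TE, but both measures divide by the siCtrl RNA library. With siCtrl footprints in place of RNA below the line, AU018091 went to 2.10 and Slc7a5 to 2.35, next to 2.49 for Slc38a1 and 2.34 for Slc7a1. By that measure 8 of the 10 were at least 2-fold above, as were 34.3% of all genes, and Slc3a2 (0.96) and Slc1a4 (0.95) lay just under the line. With CDS reads of RNA below the line, Slc38a2 stood at 3.18, Slc38a1 at 3.48 and Slc3a2 at 1.49, so the order below Slc7a5 depends on the RNA region used. The median of the 10 with footprints was 1.96, against 2.22 for the other 56 Slc genes and 0.34 for all genes.

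Other genes of amino acid supply were read from 4 lists. Among all genes, 2.88% passed 1.5-fold upward and 1.24% downward in RNA, and 2.66% and 1.53% in RPF. In TE 0.184% were higher and 0.827% lower. Further amino acid transporters were few, 5 of 48 named, and 0 were at least 1.5-fold apart in RNA, RPF or TE. Among them Slc38a4 stood at 0.22 in RNA and 0.29 in RPF, and Slc43a1, a leucine carrier, at -0.49 and -0.53. Of 13 genes of the ATF4-linked amino acid response, 1 was at least 1.5-fold higher in RNA and RPF and 0 were lower. It was Asns, asparagine synthetase, at 0.65 in both, whereas Atf4 itself stood at -0.23 in RNA and -0.38 in RPF. The list's median was -0.02 in RNA and 0.07 in RPF.

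Of 34 genes of mTORC1 and amino acid sensing, 1 was higher and 1 lower by 1.5-fold in RNA and RPF. Counts of 1 in 34 do not set this list apart from all genes. Of all genes, 2.88% passed upward and 1.24% downward in RNA, and 2.66% and 1.53% in RPF. Kptn, a subunit of the KICSTOR complex that holds mTORC1 back, stood at 0.86 in RNA and 0.65 in RPF, and Gatsl3 (Castor1), the arginine sensor of the pathway, at -0.76 and -1.09. The median was 0.13 in RNA and 0.11 in RPF. Of 21 enzymes that use the transported amino acids, 0 were 1.5-fold apart, with glutamate dehydrogenase Glud1 at 0.24 in RNA and 0.45 in RPF and the glycine decarboxylase Gldc at -0.36 and -0.41. Of the other 56 Slc genes, which include the 5 further amino acid transporters, 3 passed 1.5-fold upward and 1 downward in siPKM RNA, and 5 upward and 1 downward in RPF. The lowest was the fatty acid carrier Slc27a2, at -0.84 in RNA and -1.13 in RPF, and the highest in RPF was the zinc carrier Slc39a4, at 0.62 in RNA and 0.92 in RPF. The peptide carrier Slc15a1 stood at 0.58 and 0.82, the sulfate carrier Slc26a2 at 0.29 and 0.77, and the choline carrier-like genes Slc44a1 at 0.67 and 0.59 and Slc44a2 at 0.60 and 0.43.

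The genes nearest to Slc7a5 and Slc3a2 were found over 5 measures (the RNA, RPF and TE ratios, siCtrl TE, and CLIP over RNA), each divided by its SD over all genes, from 6 libraries. Nearest to Slc7a5 were Raver1 (distance 0.50), Ccnk (0.60) and Tead1 (0.67), where the median gene was at 4.07. Nearest to Slc3a2 were Prcp (0.29), Cdh3 (0.40) and Zmpste24 (0.49), where the median gene was at 2.59. Raver1 had a TE ratio of -0.29 and a CLIP over RNA of 2.96, against -0.32 and 3.39 for Slc7a5.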

How the data were processed

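The 6 libraries shared 1 table. Per the file headers the authors deposited raw counts of reads per transcript region (RNA, RPF) and of CLIP stops, and log2 RPM, log2 translation efficiency and log2 CLIP enrichment; the counts were used except where the authors' table is named. Submitters' processing notes name cutadapt, Bowtie2 and mm9. Counting rules, strand and the handling of multiply aligned reads are not given in the sources used here, so paralogs and antisense neighbours may share reads. Footprints were made with RNase A and T1, per the labels' protocols.

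The 6535 rows had at least 151 CDS reads in every RNA and RPF library. One row was kept per symbol (6532 genes), and a floor of 64 mean reads removed 0. Reads of the CDS, leaving off 15 codons at its start and 5 at its end, plus 0.5, were scaled to the library sum. Log2 ratios were centred on the median gene and TE (RPF minus RNA) centred again, which hides any shift common to all genes. With 1 library per group no count test was made. Intervals (95%) are exact binomial (Clopper-Pearson) or Poisson, and for TE normal on the log scale. They cover only the counting error of reads taken as independent. Where reads are PCR copies of the same molecule, they are too narrow. CLIP replicates differed beyond sampling noise (chi-square per degree of freedom 1.95) and count as 2.

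All 10 transporters are named. From other lists the genes 1.5-fold apart (at most 6), or else the RPF extremes, are named, and Atf4 was added after its values were seen. The 10 transporters and the lists were chosen with earlier results of these data known. Alternatives were edgeR (4.0.16) TMM and DESeq2 (1.42.0) factors or library sums without centring, other floors, added reads, regions and folds, and single CLIP replicates. Python 3.11.15, pandas 2.3.3 and scipy 1.17.1 were used, and calculations were tested on simulated data.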

Additional observations from a re-analysis of the deposited data

How the results depend on the processing

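Over the 7 alternatives planned for each ratio (TMM or DESeq2 factors, or library sums, without centring, no floor or a higher one, 5 reads added, whole CDS), 1 value changed sign, RNA of Slc7a7 (-0.00 to 0.05, in 4 of 7). The setting without a floor could change nothing, since the floor of 64 mean reads removed 0 genes. Slc38a2 in RNA ranged from -0.62 to -0.57, under 1.5-fold only with library sums and no centring, and in RPF from -0.71 to -0.68. TE of Slc7a5 ranged from -0.34 to -0.32. With RNA reads of the whole transcript, chosen after seeing the data, the median of the 10 was 0.26 in RNA and -0.13 in TE, and TE of Slc7a1 was -0.06. The median CLIP over RNA was 2.96 with CDS reads and 1.96 with footprints below the line. At 2-fold, 21 genes were higher and 10 lower in RNA, 20 and 9 in RPF, and 0 and 0 in TE. With the higher floor, 5434 genes were left, 5 higher in TE and 35 lower. Leaving out 1 CLIP replicate gave medians of 2.17 and 2.18. No paired analysis was possible because the siRNA groups had 1 library of each kind.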
